A study of Mus musculus with 24 samples.

Results

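The expression of 10 imprinted genes that act on growth was followed in 24 libraries labelled brown fat. They are H19, Igf2, Meg3, Dlk1, Peg3, Mest, Cdkn1c, Grb10, Gnas and Plagl1. The 10 genes were named by symbol, and the group was chosen by measured values, since H19 had been seen to be lower in the cold and under the BATdKO label with a wide spread. For H19, the 4 comparisons below are therefore a description with no test. Of the 12615 genes in the table of counts, 7 were members (H19, Meg3, Peg3, Cdkn1c, Grb10, Gnas and Plagl1), and Igf2, Dlk1 and Mest were not analysed here. Plagl1 did not pass the filter on low counts, which left H19 and 5 other members among the 12485 genes tested.

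At an imprinted gene the copy from one parent is active and the copy from the other is silenced, under the control of marks laid down in the germ line. Many such genes set fetal growth, with those read from the paternal copy (Igf2, Dlk1, Peg3, Mest, Plagl1) mostly promoting it and those read from the maternal copy (H19, Cdkn1c, Grb10) mostly restraining it, and most are turned down in many tissues after birth. Skeletal muscle is a tissue in which H19 stays on in the adult. Gnas encodes the stimulatory G protein subunit through which the adrenergic receptors of brown fat raise cAMP. Counts per gene do not tell the parental copies apart.

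The study asked how the corepressor partners TBLR1 and TBL1 shape the response of brown fat to cold. All mice, on a C57BL6/N background, carried floxed alleles of both genes (TBLR1 fl/fl;TBL1 fl/fl) and all received tamoxifen. BATdKO mice also carried Ucp1CreERT2, a recombinase that tamoxifen switches on and the Ucp1 promoter limits to thermogenic adipocytes, and the Cre- controls lacked it. Each genotype was kept at 30°C for 4 days or at 8°C for 6 days, the latter after steps of 1 day each at 18, 16 and 12°C, which gave 4 groups of 6 mice. The labels describe females raised at 22°C, with tamoxifen at an age given as 5 years, where the methods of the study give weeks, and with the temperature treatment starting 3 weeks after the last injection. The methods also give fewer days in the cold, and the legend of the study's expression plot gives males. Since only the labels group the samples, they were followed.

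With the kit used, a transcript gives 1 tag from close to its 3′ end, whatever its length. Total counts per library ranged from 699703 (Cre- at 30°C, mouse 4) to 11527643, with medians per group between 5803498 and 7739112. Below, BATdKO and Cre- mice are mice so labelled, and every genotype comparison takes its direction from these labels. Whether the genotype labels are right was not tested. The levels of some marker genes bear on the labels. At 8°C both floxed genes had more RNA in libraries labelled BATdKO than in those labelled Cre-. Tbl1xr1 had a median of 39.5 CPM (counts per 1000000 of the normalized library size, range 33.7 to 44.3) in the former. In the latter it had 21.0 CPM (18.2 to 24.6), without overlap (log2 0.92, SE 0.17, adjusted p = 0.00348 by edgeR). Tbl1x had 54.3 and 40.7 CPM, with overlap (log2 0.39, SE 0.10, adjusted p = 0.0633 by edgeR). At 30°C the log2 differences were 0.44 for Tbl1xr1 and 0.35 for Tbl1x (adjusted p = 0.36 and 0.205 by edgeR). At 30°C mouse 6 of each genotype lay on the other side of this divide, with 38.6 CPM of Tbl1xr1 in the library labelled Cre- and 17.0 CPM in the library labelled BATdKO, so the main results that use the 30°C groups were also computed without both. The 7 hepatocyte genes including Alb summed to between 27147 and 39787 CPM in every library, above the 10 brown adipocyte markers including Ucp1, which summed to between 603.3 and 3614 CPM. The labelled tissue therefore went with more RNA of liver-type genes than of brown adipocyte markers in all 24 libraries. A list of 21 skeletal muscle fibre genes summed to between 54.4 and 14697 CPM, whereas 9 markers of muscle precursors (among them Pax7, Myod1 and Myf5) were not among the genes analysed here. In such bulk samples fewer cells of a type and less RNA per cell cannot be told apart.

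The H19 gene lies on the minus strand of chromosome 7 (GRCm38, chr7:142575529-142578143) and yields a long noncoding RNA. The tags of this kit come from the end of the transcript, and the last 100 bases of the longest annotated transcript (GENCODE vM21, chr7:142575529-142575628) are shown for that reason, 5′ to 3′, with the signal for polyadenylation in capitals. The first exon of H19 also holds the hairpin of miR-675, whose 2 mature forms (RefSeq, GRCm38.p6, chr7:142577112-142577133 and chr7:142577078-142577099, minus strand) are shown with the seed, bases 2 to 8, in capitals. The seeds differ. Counts of the miRNA were not analysed here.
H19 3′ end: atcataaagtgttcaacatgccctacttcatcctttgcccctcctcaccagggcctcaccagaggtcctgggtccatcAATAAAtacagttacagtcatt
mmu-miR-675-5p: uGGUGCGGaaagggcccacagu
mmu-miR-675-3p: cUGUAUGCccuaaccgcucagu

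H19 spanned a wider range than any other tested member, and its group differences rested on a few libraries. In Cre- mice at 30°C it ranged from 0.721 to 392.5 CPM with a median of 6.78 CPM, and in Cre- mice at 8°C from 1.34 to 67.3 CPM with a median of 18.7 CPM. In BATdKO mice it ranged from 1.497 to 16.1 CPM with a median of 5.73 CPM at 30°C, and from 1.67 to 6.59 CPM with a median of 3.61 CPM at 8°C. All 4 groups overlapped. Mice 3 and 1 of the Cre- group at 30°C stood apart at 392.5 and 143.6 CPM, while the other 4 mice of that group lay between 0.721 and 9.80 CPM. These 2 libraries held 4729 of the 6308 H19 counts in the table, or 75.0%. The SD of log2 CPM (n = 6) was 3.38 in Cre- mice at 30°C, 2.30 in Cre- mice at 8°C, 1.08 in BATdKO mice at 30°C and 0.67 in BATdKO mice at 8°C. In all, 5 libraries had under 10 counts of H19, and mouse 4 of the Cre- group at 30°C, the shallowest library, had 2, which is under the floor of 3 counts (4.29 CPM of its total).

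**Figure D1:**
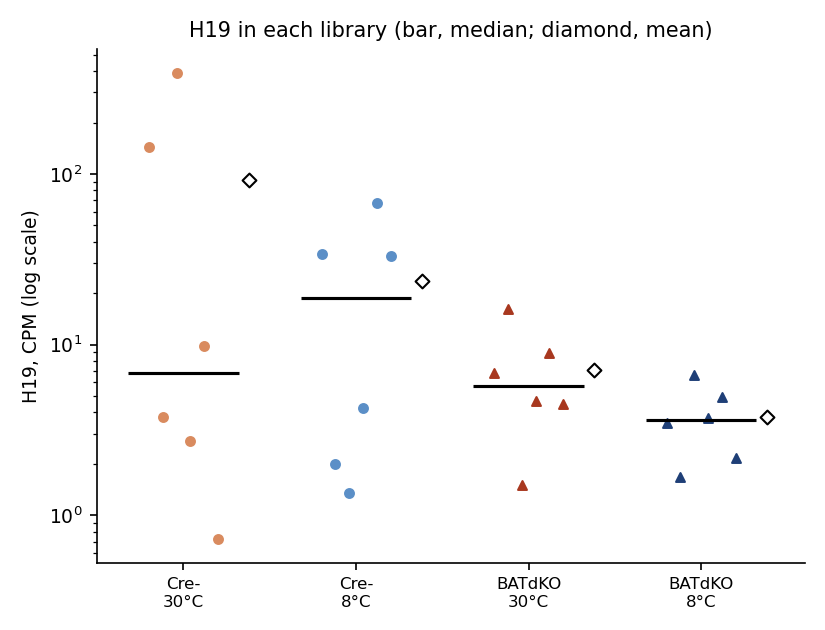
H19 in CPM on a log axis for each of the 24 libraries, in 4 groups of 6 mice; bars are medians and open diamonds are means. Mean and median put the Cre- groups in opposite order, with means of 92.2 CPM at 30°C and 23.7 CPM at 8°C against medians of 6.78 and 18.7 CPM.

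The order of the groups depended on the measure. By the mean, H19 was highest in Cre- mice at 30°C (92.2 ± 157.3 CPM, SD, n = 6), followed by Cre- mice at 8°C (23.7 ± 26.3 CPM), BATdKO mice at 30°C (7.09 ± 5.07 CPM) and BATdKO mice at 8°C (3.76 ± 1.81 CPM). By the median, Cre- mice at 8°C came first and Cre- mice at 30°C second. No pair of neighbours in either order was further apart than the spread of its groups. The fitted log2 fold changes were -2.03 for cold in Cre- mice, -1.01 for cold in BATdKO mice, -2.69 for genotype at 8°C and -3.71 for genotype at 30°C. Without mice 1 and 3 of the Cre- group at 30°C, the first turned to 2.43 and the last to 0.75, whereas cold in BATdKO mice (-1.02) and genotype at 8°C (-2.70), which do not use those libraries, stayed close to their values. Without both mouse 6 libraries at 30°C the values were -2.31, -1.13, -2.71 and -3.89. All 6 BATdKO mice at 8°C lay under the median of Cre- mice at 8°C, yet all 6 also lay above the lowest of them.

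Whether H19 followed muscle genes was asked library by library, with the mean of each group removed from both measures. This took out the group differences by which H19 was chosen, but not its wide spread, which was also known at the choice. The p-values of this relation are therefore not independent of that choice. A muscle score was taken as the mean log2 CPM of 21 skeletal muscle fibre genes, among them Acta1 (skeletal muscle actin), Ckm (muscle creatine kinase) and Myh4 (a fast myosin heavy chain). H19 and the score rose and fell together over the 24 libraries (Pearson's r = 0.95, Spearman's rho = 0.95, permutation within groups, two-sided p = 1e-05 for each, the smallest that 100000 resamples can give, adjusted p = 0.00042 over 42 relations). Without mice 1 and 3 of the Cre- group at 30°C, the 2 libraries farthest from the median score, r was 0.91. Within single groups of 6 mice, r was 0.97 in Cre- mice at 30°C and 0.98 in Cre- mice at 8°C (rho = 0.94 in both, exact permutation p = 0.00278 for r and 0.0167 for rho in both), and 0.98 in BATdKO mice at 30°C (rho = 0.94, exact permutation p = 0.00417 for r and 0.0167 for rho). In BATdKO mice at 8°C, where both measures had their narrowest range, r was 0.82 and rho 0.77 (exact permutation p = 0.0583 and 0.103). After adjustment over the 24 relations of 6 members in 4 groups, the first 3 had a p of 0.0333 and the last 0.261 by exact permutation. Without the 2 libraries farthest from the median score of each group, r was 0.83, 0.998, 0.83 and 0.75.

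**Figure D2:**
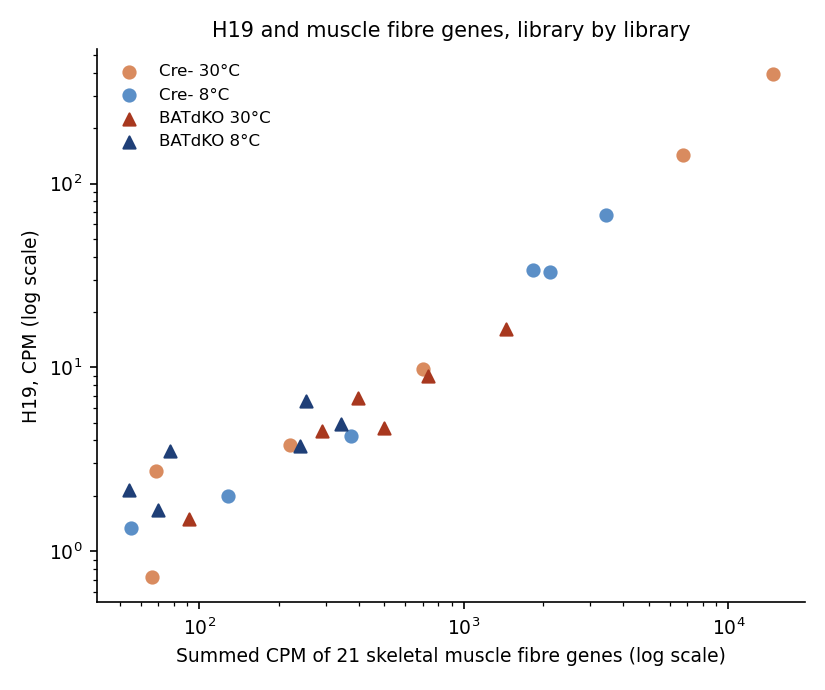
H19 in CPM against the summed CPM of 21 skeletal muscle fibre genes, both on log axes, for each of the 24 libraries, with colours and shapes for the 4 groups. The libraries of all 4 groups lie along one band, from 54.4 to 14697 CPM of muscle genes.

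The same relation showed in single libraries. The 2 libraries with the most H19, Cre- mice 3 and 1 at 30°C, had 14697 and 6767 CPM of muscle fibre genes, and mouse 6 of that group, with the least H19, had 66.4 CPM. In Cre- mice at 8°C, mouse 5 had the most of both (67.3 CPM of H19 and 3452 CPM of muscle genes) and mouse 3 the least of both (1.34 and 55.1 CPM). In BATdKO mice at 30°C, mouse 2 had the most of both (16.1 and 1449 CPM) and mouse 3 the least (1.497 and 91.3 CPM). In 16 of the 24 libraries H19 and the muscle genes had the same rank within the group. For every 1000 counts of the muscle genes there were between 9.34 and 44.9 counts of H19, with medians of 19.2 in Cre- mice at 30°C, 17.1 in Cre- mice at 8°C, 13.9 in BATdKO mice at 30°C and 25.0 in BATdKO mice at 8°C. The highest of these ratios were in libraries with few counts of either, such as BATdKO mouse 1 at 8°C with 8 counts of H19 and 178 of muscle genes.

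Ranked by likeness to H19 across all tested genes (Pearson's r of log2 CPM over the 24 libraries with group means removed), the 10 nearest of 12484 genes were Neb, Myh7, Tpm2, Mybpc1, Pgam2, Casq1, Tpm1, Hrc, Myoz1 and Cmya5, with r from 0.98 to 0.95. Neb encodes nebulin, the ruler protein of the thin filament, Myh7 the slow myosin heavy chain, Casq1 the calcium store protein of the sarcoplasmic reticulum of fast fibres, and Tpm1 and Tpm2 tropomyosins. All 21 muscle fibre genes were among the 100 nearest, at ranks 1 to 58, with r from 0.85 to 0.98. For each of the other 5 tested members, 0 of the 21 were among the nearest 100. These likenesses share libraries and depth and are given as a description.

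The median fold changes of the muscle fibre genes had the sign of those of H19. As H19 was chosen by its group differences and varied with these genes in the same libraries, this is a description with no test. The median log2 fold change was -2.21 for cold in Cre- mice, -2.10 for cold in BATdKO mice, -3.08 for genotype at 8°C and -3.04 for genotype at 30°C, beside values between -0.02 and 0.00 over all tested genes. By edgeR, 4 of 21 passed an adjusted p under 0.1 for cold in Cre- mice, all lower, against 9.15% of all tested genes. For cold in BATdKO mice and for genotype at 8°C and at 30°C 0 of 21 passed, against 7.07%, 1.82% and 0% of all tested genes. At an unadjusted p under 0.05 these last 3 had 1, 17 and 18 of 21, against 2145, 1153 and 1303 of all 12485 tested genes. DESeq2 called 0, 0, 1 and 1 in the same order. The 21 genes varied together, each with r from 0.85 to 0.98 with H19, so their counts are not counts of independent genes. Without both mouse 6 libraries at 30°C edgeR called 12, 0, 2 and 14 of the 21, all lower, against 13.2% of all tested genes for cold in Cre- mice and 4% for genotype at 30°C. Without mice 1 and 3 of the Cre- group at 30°C the direction turned for cold in Cre- mice, with 3 of 21 called, all higher, and a median of 1.79, and for genotype at 30°C the median was 0.90 with 0 of 21 called and 1 at an unadjusted p under 0.05 by edgeR. Of all 12515 tested genes that fit called 684 for cold in Cre- mice and 0 for genotype at 30°C. For the latter 831 had an unadjusted p under 0.05. The summed level of the 21 genes ranged from 66.4 to 14697 CPM in Cre- mice at 30°C, from 55.1 to 3452 CPM in Cre- mice at 8°C, from 91.3 to 1449 CPM in BATdKO mice at 30°C and from 54.4 to 343.7 CPM in BATdKO mice at 8°C. With the muscle score of each library as a covariate, the fitted log2 fold changes of H19 were -0.06 for cold in Cre- mice, 0.95 for cold in BATdKO mice, 0.39 for genotype at 8°C and -0.62 for genotype at 30°C. The score comes from the same libraries as the fold changes, and the source of the muscle RNA was not tested.

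Among the 5 other members, cold moved 3 in Cre- mice, where Gnas and Peg3 rose and Meg3 fell, against 9.15% of all tested genes (5.57% higher and 3.59% lower) by edgeR's quasi-likelihood test at an adjusted p under 0.1. In BATdKO mice cold moved 2, Gnas up and Meg3 down, against 7.07% of all tested genes (3.76% higher and 3.31% lower). Genotype called 0 of the 5 at 8°C, against 1.82% of all tested genes, and 0 at 30°C, against 0% of all tested genes. That background depended on the mouse 6 libraries, since without both of them genotype at 30°C called 500 of 12500 genes (4%), among them 0 of the 5 members. In that fit 3 of the 5 had an unadjusted p under 0.05, against 1724 of the 12500 genes. DESeq2 called 90 genes for genotype at 30°C with all libraries. The interaction of genotype and temperature also called 0 of the 5, against 0.0961% of all tested genes (0.0561% higher and 0.04% lower). At an unadjusted p under 0.05 edgeR had 0, 2 and 0 of the 5 in these last 3 comparisons, against 1153, 1303 and 1005 of all 12485 tested genes, and DESeq2 called 0 in each. Cold in Cre- mice and genotype at 8°C share the 6 Cre- libraries at 8°C, and the other comparisons share libraries in the same way.

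**Figure D3:**
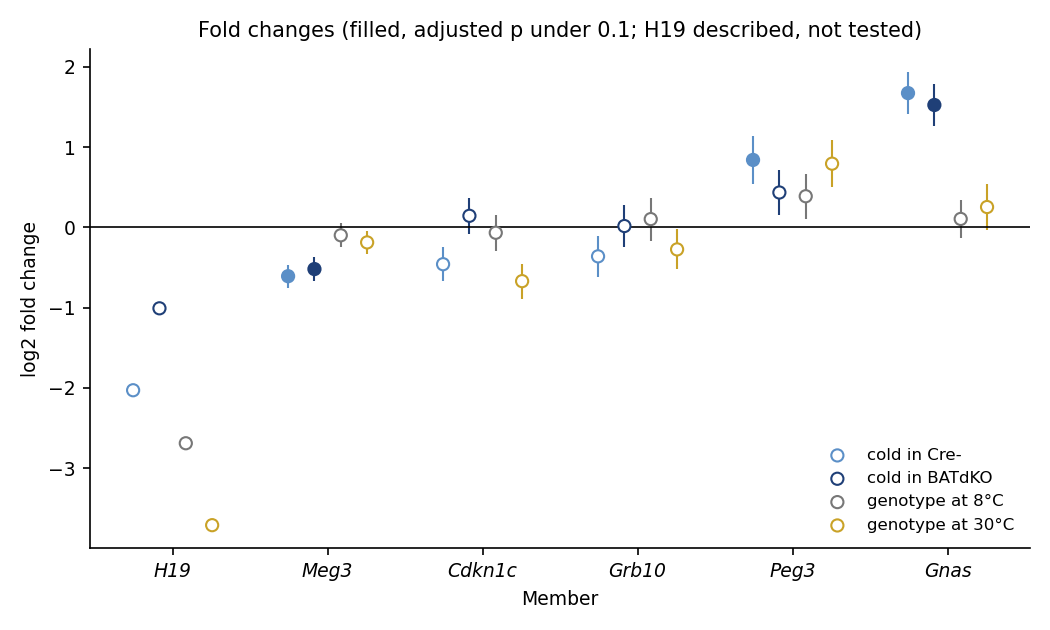
Fitted log2 fold changes of the 6 tested members with standard errors in 4 comparisons. Filled points passed an adjusted p under 0.1, which were Gnas and Meg3 for cold in both genotypes and Peg3 for cold in Cre- mice, and H19 is plotted without error because it was described and not tested.

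Gnas (chr2:174284320-174346744, plus strand) had the largest tested fold change of the members. Cre- libraries had 2.30 to 3.86 CPM at 30°C, with a median of 2.95 CPM, and 5.95 to 13.4 CPM at 8°C, with a median of 10.9 CPM, and these groups did not overlap. In Cre- mice at 30°C Gnas had 2 to 49 counts per library, with a median of 24, the lowest of them under the floor of 3 counts. In BATdKO mice it ranged from 2.36 to 5.26 CPM at 30°C (median 3.69) and from 3.91 to 17.9 CPM at 8°C (median 11.1), where 5 of 6 cold libraries lay above every warm one. The rise was 3.19-fold in Cre- mice (log2 1.67, SE 0.26, adjusted p = 0.000112 by edgeR) and 2.88-fold in BATdKO mice (log2 1.52, SE 0.26, adjusted p = 0.000477 by edgeR). The difference between both responses was -0.15 on the log2 scale (SE 0.37, adjusted p = 0.967 by edgeR), and genotype gave 0.10 at 8°C (SE 0.23) and 0.25 at 30°C (SE 0.29). Both rises passed in each of the 24 fits that left out 1 mouse, and without both mouse 6 libraries at 30°C they were 1.61 and 1.63 on the log2 scale. Several start sites of this locus share their last exons, so a 3′ tag does not tell the stimulatory subunit from its longer relatives. With group means removed, Gnas was related to endothelial markers (r = 0.61, rho = 0.60, permutation adjusted p = 0.0167 and 0.0288, r = 0.51 without the 2 libraries farthest from the median of the markers), whose summed level of 7 genes ran from 137.4 to 172.5 CPM in Cre- mice at 30°C and from 172.8 to 252.5 CPM at 8°C. In BATdKO mice the ranges of these markers overlapped, from 148.0 to 192.9 CPM at 30°C and from 173.2 to 245.3 CPM at 8°C. Gnas was also lower where hepatocyte markers were higher (r = -0.50, rho = -0.50, permutation adjusted p = 0.0352 and 0.0523). This r was -0.63 without the 2 libraries farthest from the median of those markers. The part of either cell type in the Gnas result was not tested.

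Meg3 (chr12:109541001-109571726, plus strand), a long noncoding RNA of the maternal copy with growth-restraining activity, fell in the cold in both genotypes. Cre- libraries had 13.5 to 26.1 CPM at 30°C, with a median of 19.4 CPM, and 9.49 to 15.9 CPM at 8°C, with a median of 12.9 CPM, with 3 of 6 cold libraries under every warm one. In BATdKO mice it ranged from 13.6 to 20.7 CPM at 30°C (median 17.5) and from 9.98 to 14.4 CPM at 8°C (median 11.6), with 4 of 6 cold libraries under every warm one. The log2 fold change was -0.61 in Cre- mice (SE 0.14, adjusted p = 0.00873 by edgeR) and -0.52 in BATdKO mice (SE 0.15, adjusted p = 0.0384 by edgeR). Both calls held in all 24 fits that left out 1 mouse, but without mice 1 and 3 of the Cre- group at 30°C the first was -0.45 with an adjusted p of 0.105 by edgeR. Genotype gave -0.10 at 8°C (SE 0.15) and -0.19 at 30°C (SE 0.14), neither past the threshold. Without both mouse 6 libraries the cold values were -0.72 and -0.47, both called, and that of genotype at 30°C was -0.35 (adjusted p = 0.191 by edgeR). The summed level of 10 stromal markers, with which Meg3 varied, lay between 172.3 and 407.2 CPM in Cre- mice at 30°C and 178.8 and 273.5 CPM at 8°C, and between 184.1 and 232.1 CPM in BATdKO mice at 30°C and 160.9 and 191.6 CPM at 8°C. The part of stromal cells in the Meg3 result was not tested.

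Peg3 (chr7:6703892-6730431, minus strand), which encodes a zinc finger protein read from the paternal copy, rose with cold in Cre- mice near the threshold. Cre- libraries had 5.47 to 12.2 CPM at 30°C, with a median of 8.92 CPM, and 5.75 to 25.7 CPM at 8°C, with a median of 17.4 CPM, where 4 of 6 cold libraries lay above every warm one. The lowest value at 30°C, in mouse 4, rested on 4 counts of Peg3. The log2 fold change was 0.84 (SE 0.29, adjusted p = 0.0925 by edgeR), and the call held in 14 of 24 fits without 1 mouse (adjusted p between 0.023 and 0.262). The fits in which it was lost left out mouse 3, 4, 5 or 6 of Cre- at 30°C, mouse 1, 4 or 5 of Cre- at 8°C, mouse 3 of BATdKO at 30°C or mouse 2 or 4 of BATdKO at 8°C, and their log2 values lay between 0.67 and 0.84. It did not hold with a robust dispersion (adjusted p = 0.156), without both mouse 6 libraries at 30°C (0.108) or without Cre- mice 1 and 3 at 30°C (0.164). In BATdKO mice it ranged from 9.65 to 23.3 CPM at 30°C (median 15.8) and from 11.7 to 42.7 CPM at 8°C (median 21.8), a log2 difference of 0.43 (SE 0.28, adjusted p = 0.458 by edgeR). The difference between both cold responses was -0.41 (SE 0.40, adjusted p = 0.847 by edgeR). For genotype at 30°C, the highest of the Cre- libraries was exceeded by 5 of 6 BATdKO libraries, with a log2 difference of 0.79 (SE 0.29, unadjusted p = 0.012 and adjusted p = 0.325 by edgeR) and of 0.84 (adjusted p = 0.206) without both mouse 6 libraries. The summed level of 4 smooth muscle and pericyte markers, with which Peg3 varied, lay between 46.6 and 85.7 CPM in Cre- mice at 30°C and between 72.8 and 102.5 CPM at 8°C, and that of the 7 endothelial markers, with which it also varied, between 137.4 and 172.5 CPM and between 172.8 and 252.5 CPM. Peg3 was also lower where hepatocyte markers were higher (r = -0.63, rho = -0.70, permutation adjusted p = 0.00766 and 0.00644). The part of these cell types in the Peg3 result was not tested.

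**Figure D4:**
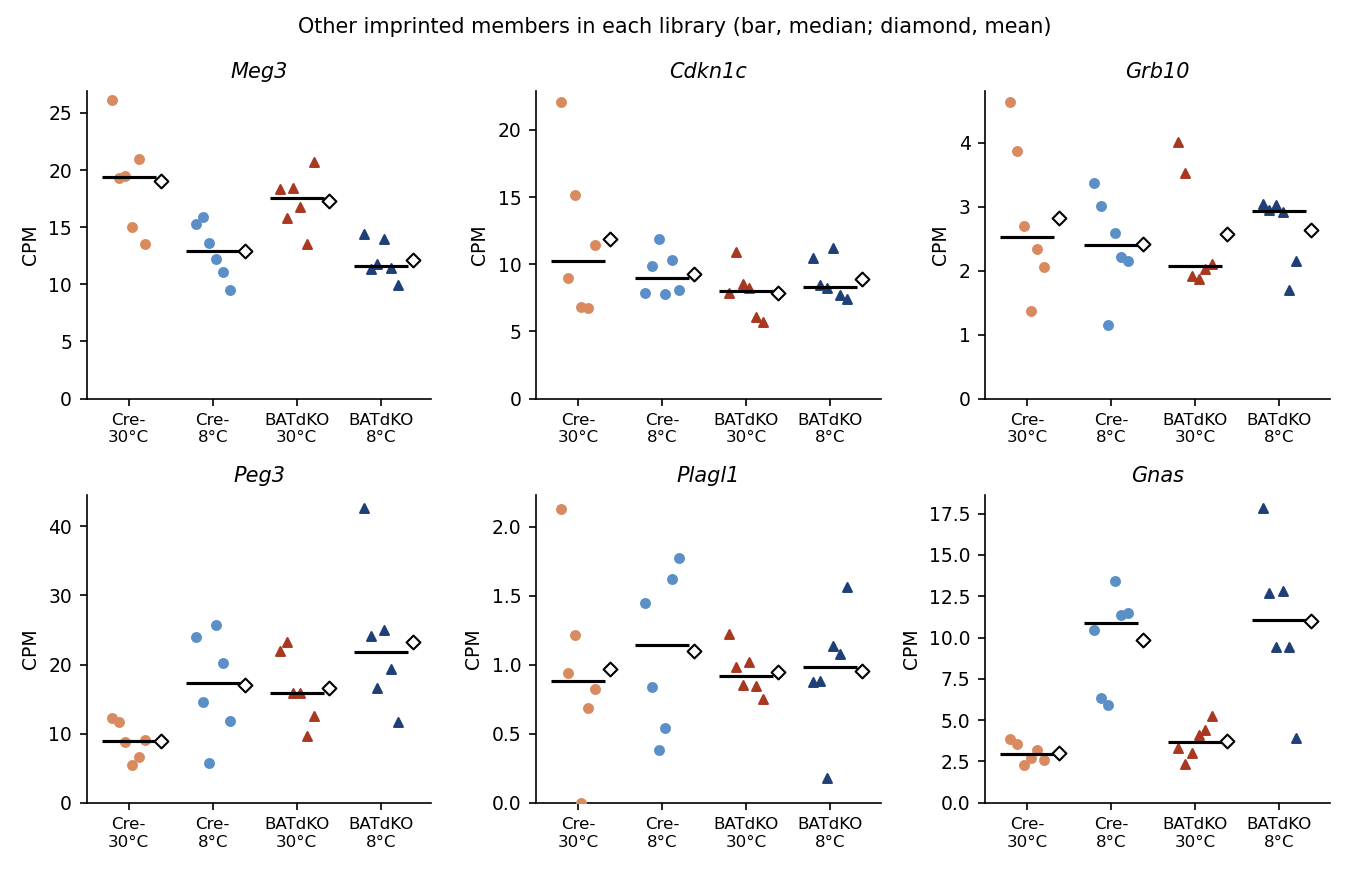
CPM of the other 6 members in the table for each library in 4 groups of 6 mice, on linear axes from 0; bars are medians and open diamonds are means. Gnas is higher and Meg3 lower at 8°C in both genotypes, and Plagl1 lies at or under 2.13 CPM throughout.

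Cdkn1c and Grb10 did not pass the threshold in any comparison with all libraries, and Plagl1, with few counts, was not tested. Cdkn1c (chr7:143458339-143461050, minus strand), which encodes the cyclin-dependent kinase inhibitor p57, had medians of 10.2 CPM (range 6.76 to 22.1) in Cre- mice at 30°C, 8.98 CPM (7.79 to 11.9) in Cre- mice at 8°C, 8.04 CPM (5.71 to 10.9) in BATdKO mice at 30°C and 8.33 CPM (7.43 to 11.2) in BATdKO mice at 8°C. Its genotype difference at 30°C was -0.67 on the log2 scale (SE 0.22, unadjusted p = 0.00455 and adjusted p = 0.24 by edgeR), and the groups overlapped. This difference was -0.63 (adjusted p = 0.182 by edgeR) without both mouse 6 libraries and -0.17 (adjusted p = 0.915 by edgeR) without mice 1 and 3 of the Cre- group, and lay between -0.81 and -0.38 with any 1 mouse left out. For cold in Cre- mice it was -0.46 (SE 0.22, adjusted p = 0.243 by edgeR), and -0.60 with an adjusted p of 0.0887 without mouse 5 of Cre- at 30°C. Grb10 (chr11:11930508-12038683, minus strand), an adaptor that dampens signalling from the insulin and IGF receptors, had medians of 2.52, 2.41, 2.07 and 2.94 CPM in the same order, with 1.15 to 4.64 CPM (1 to 59 counts) over all libraries and log2 differences between -0.36 and 0.10. For genotype at 30°C its difference was -0.28 (SE 0.25), and -0.35 without both mouse 6 libraries. Plagl1 (chr10:13060504-13131694, plus strand), a zinc finger factor of the paternal copy, had 0 to 27 counts per library. It was at 0 in mouse 4 of the Cre- group at 30°C, where a count of 0 allows up to 4.29 CPM of the total count. Its medians were 0.882, 1.14, 0.918 and 0.982 CPM, and the groups overlapped in all 4 comparisons.

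The members were compared with markers of the cell types that the tissue could hold, and differences between members were not tested. Of the 42 relations of 6 members and 7 marker lists, 14 passed an adjusted p under 0.05 by Pearson's r, 1 of them of H19, namely that with muscle. Meg3 (r = 0.70, rho = 0.59, permutation adjusted p = 0.0114 and 0.0418), Cdkn1c (r = 0.74, rho = 0.59, permutation adjusted p = 0.0156 and 0.0496) and Grb10 (r = 0.71, rho = 0.68, permutation adjusted p = 0.00823 and 0.0108) varied with 10 markers of adipocyte progenitors and stroma. Peg3 also did so (r = 0.46, rho = 0.51, permutation adjusted p = 0.0352 and 0.0523). The same 4 members varied with smooth muscle and pericyte markers, Peg3 (r = 0.74, rho = 0.81, permutation adjusted p = 0.00084 and 0.00063), Grb10 (r = 0.70, rho = 0.68, permutation adjusted p = 0.00766 and 0.00997), Meg3 (r = 0.65, rho = 0.52, permutation adjusted p = 0.0163 and 0.0523) and Cdkn1c (r = 0.62, rho = 0.51, permutation adjusted p = 0.0352 and 0.0678). Peg3 also varied with endothelial markers (r = 0.62, rho = 0.67, permutation adjusted p = 0.0167 and 0.0126), as Gnas did. With brown adipocyte markers Peg3 passed by rho but not by r (r = 0.34, rho = 0.55, permutation adjusted p = 0.151 and 0.0365). Peg3 (r = -0.63, rho = -0.70, permutation adjusted p = 0.00766 and 0.00644), Grb10 (r = -0.61, rho = -0.54, permutation adjusted p = 0.0176 and 0.0523) and Gnas (r = -0.50, rho = -0.50, permutation adjusted p = 0.0352 and 0.0523) were lower where hepatocyte markers were higher. The relation with the muscle score was not past the threshold for any member but H19, at r from 0.19 to 0.47. Without the 2 libraries farthest from the median of the stromal markers, r was 0.59 for Meg3, 0.47 for Cdkn1c, 0.56 for Grb10 and 0.41 for Peg3. It was 0.67 for Peg3, 0.64 for Grb10, 0.57 for Meg3 and 0.53 for Cdkn1c with smooth muscle and pericyte markers, 0.61 for Peg3 with endothelial markers, and -0.64, -0.39 and -0.63 for Peg3, Grb10 and Gnas with hepatocyte markers, each without the 2 libraries farthest on that list. With the log2 total count of the library, group means removed, r was 0.43 for Grb10, 0.37 for Cdkn1c, 0.29 for Peg3, 0.23 for H19, 0.10 for Meg3 and 0.09 for Gnas. The part of depth in the relations with markers was not tested.

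**Figure D5:**
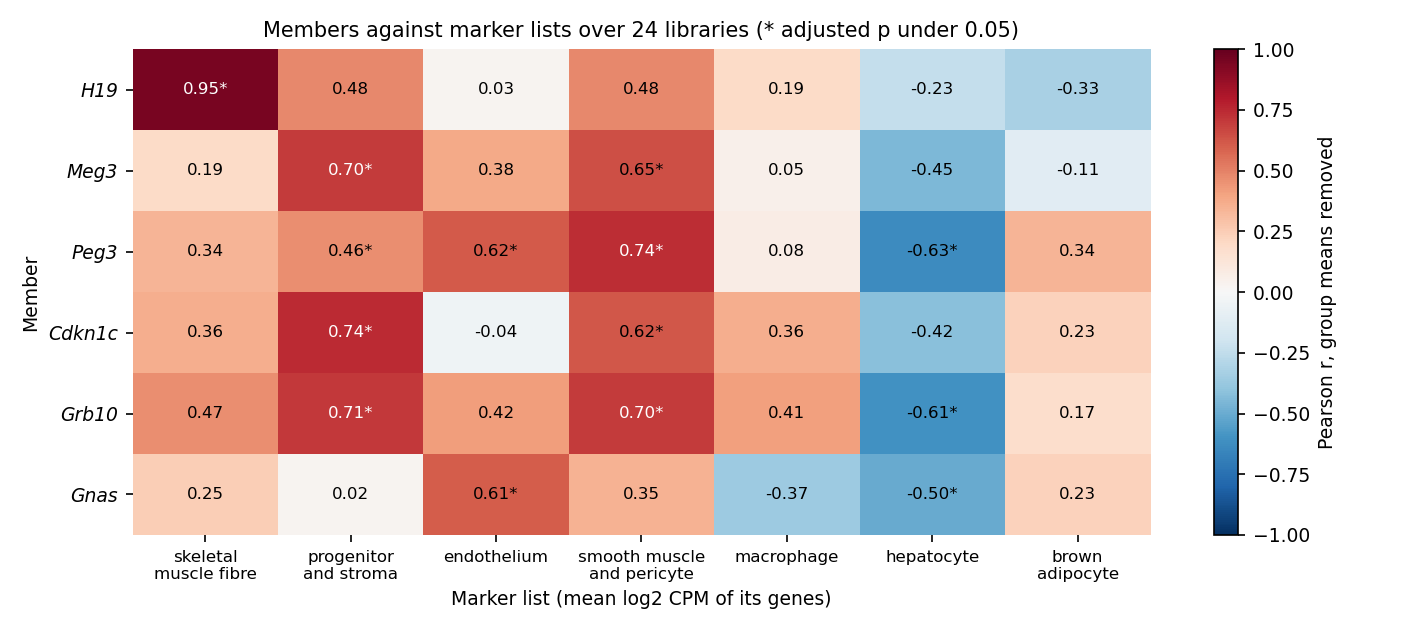
Pearson's r of log2 CPM of each tested member with the mean log2 CPM of 7 marker lists over 24 libraries, with group means removed; asterisks mark an adjusted permutation p under 0.05. H19 alone passes with skeletal muscle fibre genes (0.95), and Meg3, Cdkn1c and Grb10 have their highest values with the progenitor and stroma list (0.70, 0.74 and 0.71).

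Among the members themselves, 1 of 15 pairs passed, Peg3 with Grb10 (r = 0.73, rho = 0.70, permutation adjusted p = 0.0018 and 0.00585, r = 0.62 without the 2 libraries farthest from the median of Grb10). H19 had r from 0.18 to 0.41 with the other 5, none past the threshold. The genes nearest to Meg3 were Fundc2, Col1a1 and Camk2d (r = 0.73, 0.72 and 0.71), those nearest to Peg3 Itga6, Dnajc14 and Fxr1 (0.81, 0.79 and 0.79) and those nearest to Cdkn1c Cd34, 9930111J21Rik2 and Serinc3 (0.78, 0.77 and 0.77). Among those nearest to Grb10 were Lum and Kdm6a (0.74 and 0.74), and nearest to Gnas were 1810043G02Rik, Sipa1l1 and Khdrbs3 (0.80, 0.80 and 0.76). Col1a1, Cd34 and Lum are markers of stromal cells and belong to the list used above.

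Promoter windows from 250 bases before to 50 after a start site were at hand for Meg3, Peg3 and Gnas, the members that cold moved, and also for Grb10 and Plagl1. They were searched on both strands for the cAMP response element TGACGTCA, the E-box CAGCTG and TATAAA. The first held a match in 1.79% of 32851 mouse promoters, the second in 16.3% and the third in 13.6%. Meg3 at the upstream of its listed starts (chr12:109540746-109541045, plus strand) held TGACGTCA at 57 bases before the start and overlapping matches of TATAAA on both strands at 29 and 25 bases before it. Peg3 (chr7:6730370-6730669, minus strand) held TGACGTCA at 178 bases before its start. The 4 windows of Gnas held neither TGACGTCA nor CAGCTG, and 3 of them held TATAAA on the minus strand. Of these, the windows chr2:174327499-174327798 and chr2:174327518-174327817 overlap and hold the same match. The windows of Grb10, which cold did not move past the threshold, and of Plagl1, which was not tested, held none of these motifs. Both windows with the cAMP response element are shown 5′ to 3′ (RefSeq, GRCm38.p6) with the matches in capitals. Of these genes Meg3 fell and Peg3 rose in the cold. A match is a run of letters and not a measured site, and a part of the motifs in the cold response was not tested.
Meg3: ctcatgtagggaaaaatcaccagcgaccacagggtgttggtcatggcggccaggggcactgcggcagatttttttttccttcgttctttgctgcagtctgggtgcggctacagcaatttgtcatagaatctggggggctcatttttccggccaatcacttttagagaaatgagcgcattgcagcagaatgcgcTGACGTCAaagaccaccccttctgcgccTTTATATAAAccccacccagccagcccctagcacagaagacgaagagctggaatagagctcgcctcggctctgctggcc
Peg3: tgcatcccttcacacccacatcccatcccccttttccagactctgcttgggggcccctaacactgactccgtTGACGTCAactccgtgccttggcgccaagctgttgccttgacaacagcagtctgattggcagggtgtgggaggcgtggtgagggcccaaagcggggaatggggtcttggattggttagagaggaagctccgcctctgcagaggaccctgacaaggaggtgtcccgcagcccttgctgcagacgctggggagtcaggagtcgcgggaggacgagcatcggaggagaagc

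A pair of wider lists give the setting of the members. Of 56 other imprinted genes, 29 were in the table and tested, and for cold in Cre- mice 1 rose and 3 fell (13.8%, against 9.15% of all tested genes), with a list median log2 fold change of -0.02, equal to that of all tested genes. Blcap, which shares its imprinted domain with Nnat, fell most clearly, from 29.2 CPM (range 23.2 to 30.0) at 30°C to 18.8 CPM (18.2 to 19.4) at 8°C in Cre- mice without overlap (log2 -0.58, SE 0.09, adjusted p = 0.000157 by edgeR). It also fell in BATdKO mice as the only called gene of the list (3.45%, against 7.07% of all tested genes), from 30.8 CPM (24.9 to 40.1) to 19.1 CPM (18.0 to 21.3) without overlap (log2 -0.71, SE 0.09, adjusted p = 2.11e-05 by edgeR). In Cre- mice Ndn (necdin, -0.80, SE 0.22) and Airn (the noncoding RNA that silences Igf2r, -0.71, SE 0.23) fell and Herc3 (0.65, SE 0.21) rose, with adjusted p of 0.0282, 0.0673 and 0.0637 by edgeR.

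For genotype at 8°C, 2 of the 29 passed, 1 in each direction, against 0.697% higher and 1.12% lower of all tested genes. Ndn was higher in the libraries labelled BATdKO, at a median of 11.4 CPM (range 10.2 to 16.1) against 5.62 CPM (4.22 to 8.44), without overlap (log2 1.06, SE 0.22, adjusted p = 0.0105 by edgeR). Slc22a3, an organic cation transporter whose exons overlap those of Plg on the other strand, was lower, at 5.65 CPM (4.78 to 8.75) against 11.7 CPM (8.20 to 16.1) (log2 -0.90, SE 0.19, adjusted p = 0.00815 by edgeR). Plg is a liver gene, and since a strand setting of the counting is not given in the sources used here, reads of both may not be told apart. At 30°C and for the interaction edgeR called 0 of the 29, and DESeq2 also called 0 and 0. At an unadjusted p under 0.05 edgeR had 4 and 4 of the 29, against 1303 and 1005 of all 12485 tested genes. Without both mouse 6 libraries, genotype at 30°C called 3 of the 29, Peg13 (a noncoding RNA, log2 -0.89, SE 0.15, adjusted p = 0.00134 by edgeR), Airn (-0.75, SE 0.21, adjusted p = 0.0527) and Ndn (0.63, SE 0.19, adjusted p = 0.0831), and cold in Cre- mice called 6, of which 2 were higher and 4 lower. In that fit these comparisons called 4% and 13.2% of all tested genes.

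Of 24 genes of IGF and insulin signalling, the pathway into which Igf2 and Grb10 feed, 18 were in the table and 17 were tested. Cold in Cre- mice lowered 3 and raised 0 (17.6%, against 9.15% of all tested genes and 3.59% lower), Htra1 (a protease that cuts IGF-binding proteins, log2 -0.91, SE 0.21, adjusted p = 0.00673 by edgeR), Irs2 (an adaptor of the insulin receptor, -0.43, SE 0.13, adjusted p = 0.0464) and Igfals (the acid-labile subunit that carries IGFs in blood, -0.29, SE 0.10, adjusted p = 0.0956). In BATdKO mice cold moved 2 (11.8%, against 7.07% of all tested genes), lowering Htra1 (-0.88, SE 0.23, adjusted p = 0.0261 by edgeR) and raising Irs2 (0.39, SE 0.13, adjusted p = 0.0798). Irs2 was the 1 gene of the list called for genotype at 8°C (5.88%, against 1.82% of all tested genes), with a median of 32.7 CPM (range 28.2 to 49.2) in the libraries labelled BATdKO and 16.9 CPM (14.4 to 20.2) in those labelled Cre-, without overlap (log2 0.99, SE 0.13, adjusted p = 5.21e-05 by edgeR). The difference between its cold responses was 0.82 (SE 0.18), with an adjusted p of 0.105 by edgeR and 0.0166 by DESeq2. This value lay close to the threshold, and edgeR called it with RLE normalization (adjusted p = 0.0985), with no filter on low counts (0.0975), with a robust dispersion (0.0733), without mice 1 and 3 of the Cre- group at 30°C (0.0665) and in 8 of 24 fits without 1 mouse (0.0724 to 0.202), but not without both mouse 6 libraries (0.133). Over the list, edgeR had 0 of 17 called for the interaction and 2 at an unadjusted p under 0.05, against 1005 of all 12485 tested genes. At 30°C edgeR called 0 of 17, with 3 at an unadjusted p under 0.05 against 1303 of all 12485 tested genes, and DESeq2 called 0. Without both mouse 6 libraries edgeR called 1 of 17 at 30°C, Htra1 (log2 -0.72, SE 0.19, adjusted p = 0.0317), 5 for cold in Cre- mice and 1 for cold in BATdKO mice. In the same order that fit called 500, 1651 and 766 of all 12500 tested genes. The list medians of log2 fold change were -0.05 for cold in Cre- mice, 0.08 for cold in BATdKO mice, 0.06 for genotype at 8°C and -0.09 for genotype at 30°C, beside values between -0.02 and 0.00 over all tested genes.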

How the data were processed

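Lexogen's QuantSeq kit was used on RNA of 24 mice. Raw counts per gene were deposited by the authors, who used BBDuk for trimming, STAR for alignment of the forward read to GRCm38 and Rsubread for counting. The annotation release and strand setting are not given in the sources used here, and the submitters' processing notes name DESeq2. The study removed outliers that its text does not name, so all 24 libraries were kept. Samples were grouped by the genotype and temperature in the labels, and nothing there says whether mice shared a litter or cage, so p-values measure the spread between these mice.

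From the deposited counts, edgeR 4.0.16 (R 4.3.3, limma 3.58.1) fitted its quasi-likelihood model to all libraries, with group means, TMM normalization and the 12485 genes left by filterByExpr (130 were removed). Benjamini-Hochberg adjustment ran over the 12485 genes at the threshold of the study, 0.1, and the F statistic gave the standard errors. CPM values use the normalized library sizes, and log2 CPM a prior count of 2. Correlations were computed in Python 3.11.15 with numpy 2.4.6 on log2 CPM with group means removed, with permutation within groups (100000 resamples, two-sided) and, within a group, over all orders of its 6 mice. The edgeR and DESeq2 1.42.0 steps were tested on simulated data. Alternatives were DESeq2, RLE normalization, other filters, robust dispersion, fits to only the groups compared, the muscle score as a covariate and leaving out each mouse. Omitting both mouse 6 libraries at 30°C, or Cre- mice 1 and 3 at 30°C, was chosen after seeing the data, as were all alternatives for the lists other than DESeq2 for the imprinted and IGF lists.

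The members and lists were chosen with earlier results of these data known. Named genes are all members, called list genes (at most 3 in each direction and comparison) and the genes most alike each member (10 for H19, 3 for others), of which 1 is not reported here. Positions are from GENCODE vM21 on GRCm38. The promoters, for 8 of the 10 members, and the miRNA sequences are RefSeq's on GRCm38.p6. No entry was used for H19 and Cdkn1c. The depth limits precision at low counts, and the floor of 3 counts covers counting error only.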

Additional observations from a re-analysis of the deposited data

How the results depend on the processing

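No paired analysis was possible because the labels give each mouse its own number and none is shared between groups. Leaving out 1 mouse at a time kept the number of called members between 2 and 3 for cold in Cre- mice, at 2 for cold in BATdKO mice and at 0 for genotype and the interaction, and r of H19 with the muscle score between 0.94 and 0.96. That r lay between 0.91 and 0.97 under the other settings.

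Omitting Cre- mice 1 and 3 at 30°C left 1 member called for cold in Cre- mice (Gnas), turned H19 to 2.43 for cold in Cre- mice and 0.75 for genotype at 30°C, Cdkn1c to 0.0379 for cold in Cre- mice and the Meg3 interaction to -0.0717. With the muscle score as a covariate, H19 turned to 0.95 for cold in BATdKO mice and 0.39 for genotype at 8°C, and Cdkn1c to 0.0676 for genotype at 8°C. Omitting both mouse 6 libraries at 30°C turned Grb10 for cold in BATdKO mice to -0.0416 and the Gnas interaction to 0.024. Irs2, the 1 gene of IGF and insulin signalling called for the interaction by DESeq2, lay close to the threshold in edgeR (adjusted p = 0.105), which called 0 with the settings of the report and 1 with RLE normalization, no filter, a robust dispersion or without Cre- mice 1 and 3. The causes were not tested.

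Counts over the lists also moved. Without both mouse 6 libraries, muscle genes called were 12 for cold in Cre- mice, 2 for genotype at 8°C and 14 for genotype at 30°C, other imprinted genes 3 for genotype at 30°C, and IGF and insulin genes 5, 1 and 1 for cold in Cre- mice, cold in BATdKO mice and genotype at 30°C. Of all 12500 tested genes, cold called 1651 in Cre- mice and 766 in BATdKO mice, and genotype 324 at 8°C and 500 at 30°C. Fitting only the groups compared gave 0 of 21, 9 of 16 and 16 of 16 tested muscle genes for cold in Cre- mice, cold in BATdKO mice and genotype at 8°C, 4 other imprinted genes and 1 IGF and insulin gene for cold in BATdKO mice, and 2 of the latter for genotype at 8°C. Over all tested genes these 3 fits called 930 of 12144, 876 of 11767 and 477 of 11892. Without Cre- mice 1 and 3 there were 12 muscle genes and 2 IGF and insulin genes for genotype at 8°C, 1 muscle gene for the interaction and 2 other imprinted genes for cold in BATdKO mice. In the same order of comparisons, 353, 25 and 1045 of all 12515 tested genes were called. DESeq2 called 0 muscle genes for cold in Cre- mice, and 1 each for genotype at 8°C and 30°C, and a robust dispersion gave 0 for cold in Cre- mice. Over all tested genes DESeq2 called 1143 of 12125, 261 of 11392 and 90 of 11147, and the robust dispersion 1101 of 12485. The muscle covariate, built from the muscle genes, gave 2 of them for genotype at 30°C and 2 for the interaction, and 1 IGF and insulin gene for cold in BATdKO mice. With it, 5, 21 and 680 of all 12485 tested genes were called in the same order. For cold in Cre- mice the covariate fit called 5 muscle genes, 4 higher and 1 lower, and 1116 of all tested genes. With 1 mouse left out, muscle genes called ranged from 0 to 11 for cold in Cre- mice (11 without Cre- mouse 6 at 30°C, 0 without Cre- mouse 3 at 30°C or Cre- mouse 3 or 4 at 8°C), from 0 to 2 for genotype at 8°C and from 0 to 15 for genotype at 30°C (15 without Cre- mouse 6, 6 without Cre- mouse 2). Without Cre- mouse 6 at 30°C, 1343 of all 12514 tested genes were called for cold in Cre- mice and 369 for genotype at 30°C. Without Cre- mouse 2 at 30°C, 67 of 12509 were called for genotype at 30°C. Other imprinted genes ranged from 2 to 6, 1 to 2 and 0 to 2 for cold in Cre- mice, cold in BATdKO mice and genotype at 30°C, and IGF and insulin genes from 1 to 5, 1 to 2 and 0 to 1, and 0 to 1 for the interaction. Of all tested genes these fits called 791 to 1343 for cold in Cre- mice and 574 to 1069 for cold in BATdKO mice. For genotype at 30°C they called 0 to 369, and for the interaction 7 to 37. Over all genes, genotype at 30°C called 0 with all libraries, 500 without both mouse 6 libraries and 90 by DESeq2.

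Leaving out 1 mouse turned the sign of some small uncalled log2 values, with ranges of -0.0367 to 0.18 for the Meg3 interaction, -0.15 to 0.0078 for Cdkn1c and -0.0178 to 0.21 for Grb10 for genotype at 8°C, -0.0915 to 0.16 for Grb10 for cold in BATdKO mice, -0.0217 to 0.28 for Gnas for genotype at 8°C and -0.28 to 0.0144 for the Gnas interaction. Libraries with under 10 counts of H19 limit its lowest values.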
